A study of Mus musculus with 4 samples.

Results

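The homeobox and paired-box genes outside the Hox clusters encode transcription factors that assign regional and cell identity in the embryo. A set of 52 such genes was taken by name out of the 28777 genes of the study's gene table: the Dlx, Irx, Lhx, Nkx and Pax families, the Six2, Six3, Six4 and Six6 genes, the pairs Emx, En, Msx and Barhl, and Alx4, Gsc and Otp. All of their rows were used, a promoter and a gene body for each gene (104 of 55200 rows) and the CpG islands, shores and shelves that the study's CpG island table assigns to them (705 of 80045 rows, covering 49 of the genes). No CpG island feature was listed for Irx5, Emx2 or Pax4. The rule used gene names, not methylation values.

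The assay was reduced representation bisulfite sequencing (RRBS), applied to CGR8 mouse embryonic stem cells grown with serum and LIF. RRBS samples CpG-rich DNA, because only short fragments between MspI sites (CCGG) are kept, and bisulfite then tells methylated from unmethylated cytosines. The netrin-1 group (2 libraries) was stably transfected with a ppy-cagg-netrin-ires-puro vector that expresses a netrin-1 transgene, and the control group (2 libraries) was stably transfected with the empty ppy-cagg-ires-puro vector. Netrin-1 is a secreted, laminin-related guidance protein, and the study asked how its exogenous expression relates to DNA methylation in these cells. Both groups therefore carry a stably transfected vector, and the level of netrin-1 was not measured here. Nothing in the labels tells whether replicates came from separate clones or cultures, so the p-values measure the spread between these libraries, which may be technical.

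The homeodomain is a helix-turn-helix fold that binds short AT-rich sites, and the paired domain is a second DNA-binding fold that defines the Pax proteins, several of which carry a homeodomain as well. In embryonic stem cells the genes for these factors are mostly silent, and many lie in broad CpG-rich domains that carry the Polycomb mark H3K27me3 beside H3K4me3. Such CpG islands are generally kept free of DNA methylation, whereas the flanking shores and shelves and the gene bodies can be methylated.

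The promoters of the set are CpG-rich as a group but not uniformly so. RefSeq promoter sequences (GRCm38.p6, reaching 250 bases before and 50 after the RefSeq start site) were found by symbol for 39 of the 52 genes, and the others are Alx4, Dlx3, Dlx4, Dlx5, Dlx6, En2, Irx1, Irx5, Irx6, Lhx5, Nkx2-6, Pax3 and Pax4. The 39 held a median of 20 CpG, against 13 over 17492 promoters of the same length, and the median observed-to-expected CpG ratio was 0.761 against 0.567. The MspI site CCGG, which reads the same on both strands, occurred in 34 of them (87.2%), against 62.1% of the 17492. The sequences of Lhx3, Lhx8, Nkx2-5, Pax8 and Pax9 held no CCGG. To show the range, 4 promoters are printed with every CG in capitals: Barhl2, the most CpG-dense of the set (chr5:106458117-106458416, minus strand, 42 CpG and 7 CCGG), Dlx1 (chr2:71529195-71529494, plus strand, 27 CpG and 4 CCGG), Nkx2-5 (chr17:26841516-26841815, minus strand, 9 CpG and no CCGG) and Pax8 (chr2:24475550-24475849, minus strand, 7 CpG and no CCGG). Dlx1 and Nkx2-5 are the genes whose promoters showed the greatest differences between the groups in either direction. Pax8 is a gene whose promoter was too thinly covered to be compared. The printed Dlx1 stretch lies downstream of the promoter measured below (chr2:71527613-71528613) and does not overlap it, so its CpG are not those compared.
Barhl2: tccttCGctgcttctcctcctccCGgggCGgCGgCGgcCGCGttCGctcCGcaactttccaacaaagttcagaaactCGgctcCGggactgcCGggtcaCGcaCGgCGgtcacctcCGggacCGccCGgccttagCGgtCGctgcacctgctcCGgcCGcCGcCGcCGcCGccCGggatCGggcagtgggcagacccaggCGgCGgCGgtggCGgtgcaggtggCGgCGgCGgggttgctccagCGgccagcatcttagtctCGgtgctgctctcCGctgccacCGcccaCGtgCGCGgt
Dlx1: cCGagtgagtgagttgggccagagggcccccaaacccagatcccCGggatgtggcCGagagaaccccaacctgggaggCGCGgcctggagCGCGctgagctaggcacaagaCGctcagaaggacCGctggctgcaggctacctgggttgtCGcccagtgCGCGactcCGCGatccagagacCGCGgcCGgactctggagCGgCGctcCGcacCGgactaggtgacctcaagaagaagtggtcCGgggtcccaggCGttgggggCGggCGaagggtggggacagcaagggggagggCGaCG
Nkx2-5: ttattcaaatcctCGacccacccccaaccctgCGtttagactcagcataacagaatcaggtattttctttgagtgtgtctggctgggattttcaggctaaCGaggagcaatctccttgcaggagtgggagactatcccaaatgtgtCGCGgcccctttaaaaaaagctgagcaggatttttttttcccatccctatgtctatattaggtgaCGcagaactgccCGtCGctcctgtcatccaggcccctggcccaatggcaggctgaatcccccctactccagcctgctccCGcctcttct
Pax8: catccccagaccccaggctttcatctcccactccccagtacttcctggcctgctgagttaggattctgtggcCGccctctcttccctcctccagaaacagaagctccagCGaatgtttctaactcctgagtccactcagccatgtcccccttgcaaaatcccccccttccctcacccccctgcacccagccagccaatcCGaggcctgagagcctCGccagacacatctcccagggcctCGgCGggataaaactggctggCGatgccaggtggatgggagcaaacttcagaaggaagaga

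The start site used in the study's gene table was not always the RefSeq one. In 8 of the 39 genes (20.5%) it lay more than 500 bp from the RefSeq start, against 11.5% of all genes matched. In Dlx1 the RefSeq start lay 1332 bp downstream of the table's, and the distance was 3069 bp in Pax1, 7226 bp in Six3, 7841 bp in Nkx2-2, 6133 bp in Lhx9, 9657 bp in Lhx4, 3704 bp in Pax9 and 560 bp in Pax7. For these genes "promoter" below means the 1000 bp around the start site of the study's table.

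The level of a feature is the percent of its calls that were methylated, coordinates are on mm10 (GRCm38), and values are given for replicate 1 and then replicate 2 of a group. The gene table held 36269454 and 53293458 calls in the netrin-1 libraries and 31452170 and 41964981 calls in the control libraries. The promoters of the set held 36609 to 67457 calls per library and the gene bodies 131478 to 226512. A feature was compared where every library had at least 10 calls, and it was tested where its calls also carried enough information on the level. RNA was not measured, so the cells' identity was looked at only through promoter methylation. Of 10 pluripotency genes 8 had a promoter with enough calls, and their levels averaged 0.550% to 31.3% over the 4 libraries. The highest was that of the nuclear receptor gene Esrrb, at 49.4% and 14.8% in netrin-1 and 51.7% and 9.43% in control, where replicate 1 was high and replicate 2 low in both groups. The next highest was that of Zfp42, which averaged 1.42%. Promoters of 3 genes of differentiated cells (Cd34, Myod1 and Gata1) averaged 1.15%, 4.92% and 18.0%, so promoter methylation did not separate these lists. Gata1 had 17 calls in its thinnest library. It was also high in replicate 1 and low in replicate 2, at 35.3% and 9.46% in netrin-1 and 23.5% and 3.64% in control.

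The promoters of the developmental genes were almost unmethylated in both groups. Of the 47 promoters with enough calls, 28 averaged under 2% over the 4 libraries, 13 lay at 2 to 5%, 5 at 5 to 10% and 1 (Dlx1) above 10%. Lhx3, Lhx4 and Pax4 had no calls in the promoter, and Pax5 and Pax8 had too few. The mean over the 47 was 2.48% and 1.82% in the netrin-1 libraries and 2.51% and 2.95% in the control libraries. Both netrin-1 libraries lay below both control libraries, but netrin-1 replicate 1 and control replicate 1 were only slightly apart. The group means were 2.15% ± 0.468 in netrin-1 and 2.73% ± 0.311 in control (SD, n = 2 each), a difference of -0.584 percentage points or -21.4% of the control level. Over all 16091 promoters the difference was -0.678 points, from means of 5.91% in netrin-1 and 6.59% in control, or -10.3%. Measured in points against that shift of all promoters, the difference of the developmental promoters was 0.0932 points and thus turned positive. As a share of the control level it was the greater fall. Before that adjustment the difference was -0.254 points without netrin-1 replicate 2 and -0.323 points when promoters were weighted by their calls. The 40 promoters with a CpG island differed by -0.226 points or -10.5% of the control level, against -0.182 points or -10.7% over all such promoters. The 7 without an island differed by -2.63 points or -43.9%, against -2.06 points or -10.2%. The greater relative fall of the set thus lay in those 7.

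**Figure D1:**
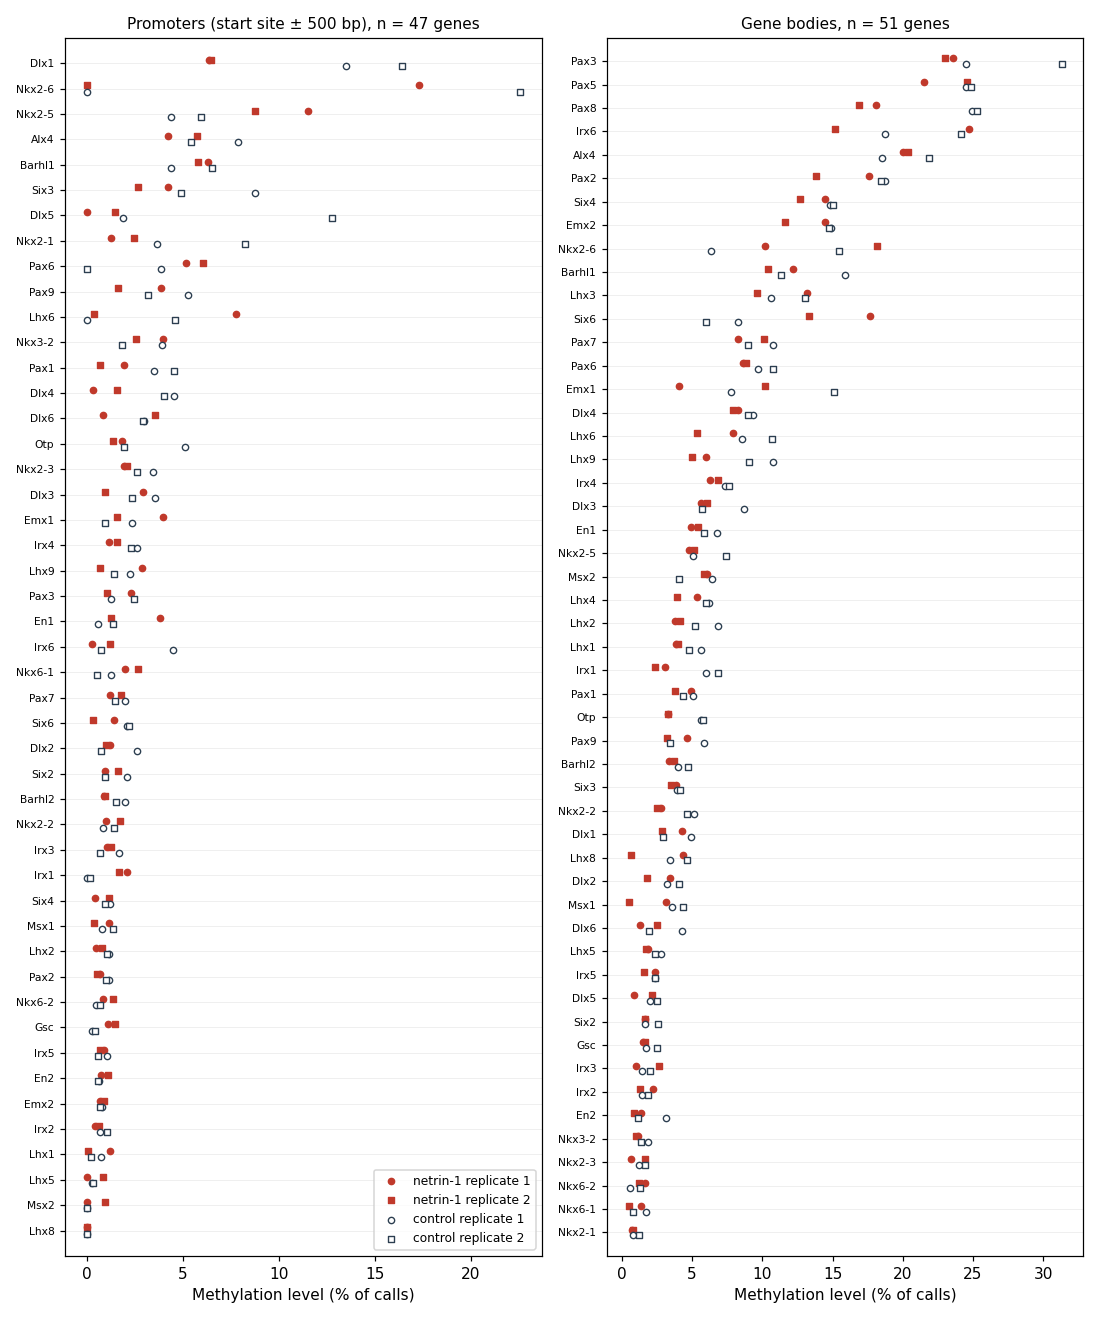
Methylation level (percent of calls, horizontal axis) of each gene's promoter and gene body, with a row per gene. Filled red symbols are the netrin-1 libraries, open dark symbols the control libraries, circles replicate 1 and squares replicate 2. Most promoters sit under 5%, while the bodies of Pax3 and Pax5 lie above 20% in every library.

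The levels of 29 promoters (61.7%) were lower in netrin-1, against 56.5% of all promoters, 17 were higher and 1 was equal. In 14 (29.8%) both netrin-1 libraries lay below both controls, against 21.0% of all promoters, and in 7 (14.9%) both lay above, against 13.2%. The limma-moderated quasi-binomial test was possible for 10 promoters. None passed an adjusted p of 0.05. Over the gene table as a whole, 0.00581% of tested features passed. At an unadjusted p under 0.05 there were 2 promoters, Dlx1 and Pax1, against 12.3% of all tested promoters.

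All 6 Dlx promoters had lower means in netrin-1. The Dlx genes, relatives of fly Distal-less, act in forebrain interneurons and in the branchial arches and limbs, and they lie in the pairs Dlx1-Dlx2, Dlx3-Dlx4 and Dlx5-Dlx6. The Dlx1 promoter (chr2:71527613-71528613) stood at 6.35% and 6.45% in the netrin-1 libraries and at 13.5% and 16.5% in the control libraries. The replicates of each group were close together and the groups were far apart. The difference of -8.59 points had an adjusted p of 0.244 in the limma-moderated quasi-binomial test, with a range of 0.130 to 0.751 over the alternative settings. Its neighbour Dlx2 showed 1.20% and 1.02% in netrin-1 and 2.62% and 0.749% in control, so the groups overlapped. The Dlx4 promoter stood at 0.307% and 1.59% in netrin-1 and at 4.53% and 4.0% in control, without overlap. The Dlx5 promoter stood at 0% and 1.48% in netrin-1 and at 1.87% and 12.8% in control, but the library with the fewest calls had 14 of them. Over the 6 Dlx promoters the mean was 2.22% ± 0.402 in netrin-1 and 5.69% ± 1.20 in control (SD, n = 2 each). Dlx4 and Dlx5 carried too little information for a test.

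The promoters of Six2, Six3, Six4 and Six6 were also all lower, averaging 1.59% ± 0.219 in netrin-1 and 2.89% ± 0.911 in control (SD, n = 2 each). Six3, needed for the forebrain and the eye, had 4.22% and 2.68% in netrin-1 and 8.76% and 4.92% in control. The groups did not overlap, though control replicate 1 stood apart from the other libraries, and the adjusted p was 0.401 in the limma-moderated quasi-binomial test. The Six6 promoter, of a retinal and hypothalamic factor, had 1.40% and 0.305% in netrin-1 and 2.11% and 2.18% in control, again without overlap.

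Among the Pax promoters 5 were lower and 1 was higher. Pax1, a factor of the sclerotome from which vertebrae form, had 1.93% and 0.668% in netrin-1 and 3.49% and 4.55% in control. Both controls were above both netrin-1 libraries, and the difference of -2.72 points had an adjusted p of 0.291 (limma-moderated quasi-binomial test). With libraries centred it became -0.441 points. That value takes off the mean shift in points of all tested features of the gene table, 15141 of 17209 of them gene bodies. Pax6, the eye and forebrain regulator, went the other way without overlap, at 5.19% and 6.05% in netrin-1 and 3.87% and 0% in control, with too little information for a test. Pax2, a factor of kidney and inner ear with the most calls of these promoters, stood at 0.694% and 0.534% in netrin-1 and 1.15% and 0.991% in control. Its groups did not overlap, but the difference was only -0.454 points.

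The Nkx promoters were split, with 3 lower and 5 higher, and held the promoter with the greatest positive difference of the set. Nkx2-5, a cardiac regulator, had 11.5% and 8.78% in netrin-1 and 4.37% and 5.97% in control. Both netrin-1 libraries were above both controls, and the difference of 4.98 points had an adjusted p of 0.447 in the limma-moderated quasi-binomial test. Nkx2-1, which specifies thyroid, lung and ventral forebrain, was lower without overlap, at 1.25% and 2.45% in netrin-1 and 3.66% and 8.24% in control. Nkx6-1 and Nkx6-2, of ventral spinal cord progenitors, were both higher without overlap but stayed under 3% in every library. Nkx2-6, with 31 calls in its thinnest library, ran from 0% to above 20% within a single group, at 17.3% and 0% in netrin-1 and 0% and 22.6% in control.

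The other promoters differed little. Irx1, of the Iroquois family that patterns neural and cardiac tissue, stood at 2.09% and 1.70% in netrin-1 and 0% and 0.144% in control, higher without overlap. Its relatives Irx2 and Irx4 were lower without overlap, Irx4 at 1.17% and 1.58% in netrin-1 and 2.63% and 2.31% in control. The LIM-homeobox promoters were among the least methylated, averaging 1.26% ± 1.13 in netrin-1 and 1.01% ± 0.366 in control (SD, n = 2 each). That of Lhx8, a factor of cholinergic neurons, had no methylated call among 174 in netrin-1 and 108 in control, which allows a level of up to 1.72% and 2.78%. Further promoters without overlap were lower in Barhl2, Lhx2, Nkx2-3 and Otp and higher in En2 and in Gsc, the gene of the gastrula organiser, where no library exceeded 5.10%.

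In the gene bodies, too, most levels were lower in netrin-1. The body of Pax4 had too few calls. Of the other 51 bodies, 44 were lower (86.3%) and 7 were higher, where 70.3% of all bodies were lower. The mean was 6.91% and 6.43% in the netrin-1 libraries and 7.62% and 7.98% in the control libraries, so the groups did not overlap. The group means were 6.67% ± 0.341 in netrin-1 and 7.80% ± 0.257 in control (SD, n = 2 each), a difference of -1.13 points or -14.5% of the control level. Bodies of the whole table were far more methylated, at 26.8% in netrin-1 and 28.9% in control, and differed by -2.13 points or -7.38%. Measured in points against that shift, the bodies of the set differed by 1.0 points, in the positive direction. As a share of the control level theirs was the greater fall. Without control replicate 2 the difference was -0.561 points, in part because the body of Pax4 then had enough calls and entered the mean. Control replicate 1, at 7.62%, was also the lower of the controls.

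Both netrin-1 libraries lay below both controls in 23 bodies (45.1%), against 33.7% of all bodies, and above them in 1 (1.96%), against 7.59%. No body of the 42 tested passed an adjusted p of 0.05 in the limma-moderated quasi-binomial test. At an unadjusted p under 0.05 there were 6, all lower, against 12.9% of all tested bodies. For promoters and bodies together, 8 of the 52 tested had an unadjusted p under 0.05, against 12.8% of the tested features of the gene table. All 8 were lower, and so were 2052 of the 2205 features of the table at that p (11.9% of all tested), so the direction was near that of the table. Limma also called 0 of them, with 2 at an unadjusted p under 0.05 when fitted to percentage points and 9 when fitted to M values.

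All 8 LIM-homeobox bodies were lower, 6 of them without overlap, against 70.3% and 33.7% of all bodies. They averaged 5.04% ± 1.05 in netrin-1 and 6.91% ± 0.083 in control (SD, n = 2 each). Lhx9, a factor of the developing gonad, had 5.97% and 4.99% in netrin-1 and 10.8% and 9.09% in control. Its groups were well separated, and the difference of -4.44 points had an adjusted p of 0.267 (limma-moderated quasi-binomial test). Lhx6, which directs cortical interneurons from the medial ganglionic eminence, had 7.94% and 5.36% in netrin-1 and 8.58% and 10.7% in control. There the gap between the nearest libraries of the groups was small, and the adjusted p was 0.351.

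All 8 Pax bodies with enough calls were lower too, averaging 13.2% ± 0.273 in netrin-1 and 15.7% ± 0.296 in control (SD, n = 2 each). Pax8, the thyroid and kidney factor, had 18.1% and 16.9% in netrin-1 and 24.9% and 25.3% in control. The replicates of each group were nearly equal, and the difference of -7.60 points had an adjusted p of 0.245 in the limma-moderated quasi-binomial test. Pax3, of neural crest and muscle progenitors, carried the highest body level of the set, at 23.6% and 23.0% in netrin-1 and 24.5% and 31.3% in control. Its groups did not overlap, but control replicate 1 was close to the netrin-1 libraries. Pax5, the B cell factor, had 21.5% and 24.5% in netrin-1 and 24.5% and 24.8% in control, a difference of -1.65 points with an adjusted p of 0.772.

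Irx1 had the lowest adjusted p among the promoters and bodies. Its body had 3.05% and 2.40% in netrin-1 and 5.97% and 6.82% in control, a clear separation, and the difference of -3.67 points had an adjusted p of 0.240 in the limma-moderated quasi-binomial test. Nkx2-2, of ventral spinal cord and pancreatic islet progenitors, had 2.82% and 2.51% in netrin-1 and 5.13% and 4.64% in control, with an adjusted p of 0.262. With libraries centred, the -2.22 points of Nkx2-2 became 0.0524 points. The shift taken off was that of all tested features of the gene table, most of them bodies of higher level. Otp, a factor of hypothalamic neuroendocrine neurons, had 3.28% and 3.32% in netrin-1 and 5.65% and 5.77% in control, where replicates were nearly equal (adjusted p 0.362). Centring moved the differences of Otp to -0.135 points, of Irx1 to -1.39 points, of Lhx6 to -0.700 points, of Lhx9 to -2.16 points, of Pax3 to -2.33 points and of Pax5 to 0.630 points. The body that was higher without overlap was Six6, at 17.7% and 13.3% in netrin-1 and 8.26% and 5.97% in control, with 109 calls in its thinnest library and no test. The 6 Dlx bodies were all lower, against 70.3% of all bodies, and 1 of them was lower without overlap, against 33.7%, averaging 3.92% ± 0.050 in netrin-1 and 4.88% ± 0.746 in control (SD, n = 2 each). Of the 11 bodies of Alx4, Barhl1, Barhl2, Emx1, Emx2, En1, En2, Gsc, Msx1, Msx2 and Otp, 9 were lower, and the mean was 6.73% ± 0.038 in netrin-1 and 8.17% ± 0.191 in control. The Nkx bodies as a family showed hardly any difference, at 3.39% ± 0.670 in netrin-1 and 3.53% ± 0.975 in control (SD, n = 2 each).

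The CpG islands of these genes are laid out differently from those of other genes. A gene of the set had a median of 2 islands, against 1 over the 12626 genes with islands, and 24 (49.0%) had 3 or more, against 4.96%. Six3 and Pax2 had 8 each, Pax6 had 7 and Barhl1 had 6. Of the 141 islands, 27.7% lay at a start site, 46.1% inside a gene and 26.2% between genes, against 66.8%, 24.0% and 9.18% of all islands. They were not longer, with a median of 515 bp against 533 bp, and their median observed-to-expected CpG ratio was 0.88 against 0.9. Because of this crowding, shores and shelves, each 2000 bp wide, often cover the same DNA. Of the 705 features, 495 overlapped another of the set, and so did 165 of the 223 tested, so counts of features are not counts of independent regions.

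Methylation was lower in netrin-1 in the islands and more so, in points, in the shores and shelves around them. The 129 islands with enough calls averaged 2.84% and 2.51% in the netrin-1 libraries and 3.47% and 3.35% in the control libraries, a difference of -0.738 points. The 230 shores averaged 6.85% and 6.45% in netrin-1 and 8.35% and 8.69% in control, a difference of -1.87 points. The 185 shelves averaged 9.74% and 8.88% in netrin-1 and 12.1% and 11.5% in control, a difference of -2.48 points. In each of these classes both netrin-1 means were below both control means. As a share of the control level the differences were -21.6%, -22.0% and -21.0%, against -13.3%, -9.94% and -7.19% over all islands, shores and shelves. Measured against the shift of all features of the class they were -0.392, -0.730 and -0.461 points, still negative.

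**Figure D2:**
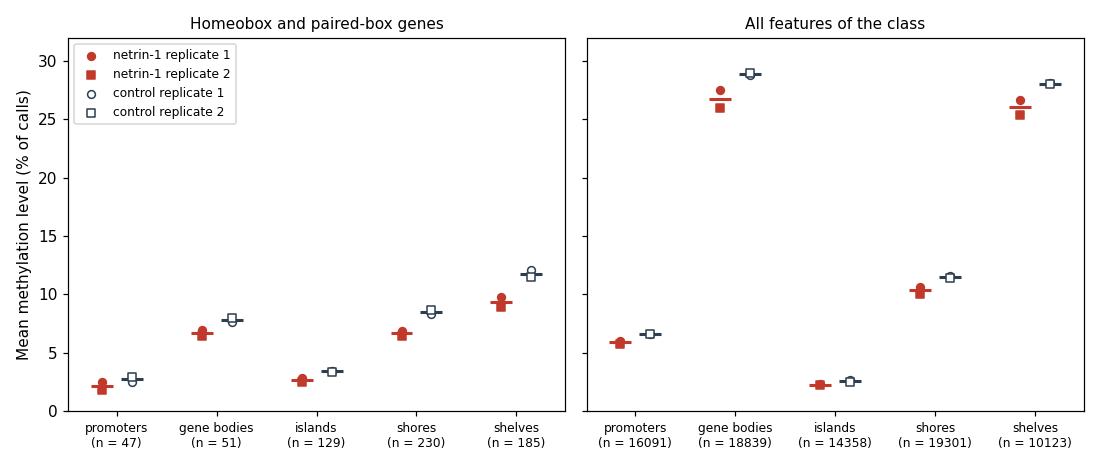
Mean methylation level (percent of calls, vertical axis) in each library for promoters, gene bodies, islands, shores and shelves, for the developmental genes (left) and for all features (right). Points are libraries, netrin-1 left of control, and bars are group means. For the developmental genes the netrin-1 libraries lie below the control libraries in the 5 classes. Measured in points against the shift of all features, the promoter and body differences turn positive. As a share of the control level they were -21.4% and -14.5%, against -10.3% and -7.38% over all features.

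By the position of the island, the greatest relative difference was between genes. The 33 intergenic islands averaged 3.81% ± 0.281 in netrin-1 and 5.88% ± 0.528 in control (SD, n = 2 each), or -35.2% of the control level, against -17.1% over all intergenic islands. A Barhl2 island far from its gene, described later, weighed on this mean, and without it, an alternative chosen after seeing the data, the difference was -1.22 points, against -2.07 points with it. The 38 islands at start sites averaged 1.47% ± 0.243 in netrin-1 and 1.86% ± 0.185 in control, and the 58 intragenic islands 2.81% ± 0.518 in netrin-1 and 3.02% ± 0.365 in control, which was less than the spread between replicates. No test was made of a difference between these positions.

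Counted by feature, 39 islands (30.2%) had both netrin-1 libraries below both controls, against 20.1% of all islands, and 14 (10.9%) had both above, against 13.7%. For shores these counts were 90 (39.1%) below, against 23.9%, and 11 (4.78%) above, against 9.96%. For shelves they were 74 (40.0%) below, against 28.0%, and 14 (7.57%) above, against 10.1%. The developmental features also held more covered positions than usual, a median of 32.5 per shore against 13.5 over all shores and 33.8 per shelf against 11 over all shelves, and the part of coverage in these shares was not tested. For islands the medians were 47.8 and 53.2 positions.

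**Figure D3:**
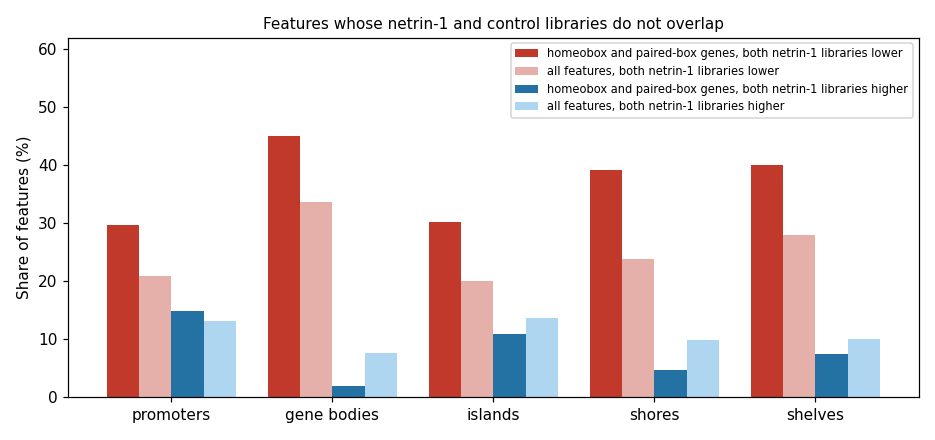
Share of features (percent, vertical axis) in which both netrin-1 libraries lay below, or above, both control libraries, for the developmental genes beside all features of the same class. In shores the shares are 39.1% below for the developmental genes and 23.9% for all features.

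No island, shore or shelf of the set passed an adjusted p of 0.05 in the limma-moderated quasi-binomial test, among 223 tested, where 0.186% of all tested features of the table passed. At an unadjusted p under 0.05 there were 49, against 12.1% of all tested features. They were 7 islands of 28 tested, against 14.1% of all tested islands, 23 shores of 105, against 11.9% of all tested shores, and 19 shelves of 90, against 11.6% of all tested shelves. Those higher in netrin-1 were an Nkx2-5 island and the shelf that covers it, and the others were lower. Of the 1424 features of the table at that p, 1243 were lower (10.5% of all tested). Limma also called 0, with 16 at an unadjusted p under 0.05 when fitted to percentage points and 39 when fitted to M values. Fitted without the minimum of information, the test called 7 of 540 features of the set, against 412 of 42735 over the table. The 7 lie in 5 genes, Lhx6, Irx1, Nkx6-2, Six2 and Msx1. Those of Irx1 and of Six2 are pairs that cover nearly the same or the same calls.

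The features with the lowest p-values are described next and were chosen after their values were seen. In Irx1 the groups were far apart in a stretch between its 2 islands, 1467 to 3466 bp downstream of the start site. The shore chr13:71960257-71962256 stood at 12.5% and 6.59% in netrin-1 and 25.6% and 28.4% in control, and a second shore, chr13:71960780-71962779, covers nearly the same calls. Both control libraries were far above both netrin-1 libraries. The difference of -17.4 points had an adjusted p of 0.0748 in the limma-moderated quasi-binomial test, with a range of 0.0036 to 0.824 over the alternative settings. Without netrin-1 replicate 1 the adjusted p of the same test was 0.0258 and the difference -20.4 points. The island at the start site, by contrast, had 1.78% and 1.96% in netrin-1 and 0.280% and 0.960% in control, higher without overlap. The intragenic island beyond the shore had 1.73% and 1.15% in netrin-1 and 3.17% and 2.85% in control, lower without overlap. Neither island carried enough information for a test, so the directions at the start site and downstream of it are given as values.

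In Lhx6 an intragenic shelf, chr2:36096510-36098509, lay 6899 to 8898 bp downstream of the start site. It had 9.84% and 5.96% in netrin-1 and 16.4% and 19.3% in control, with at least 831 calls in each library. The groups were well apart, and the difference of -9.96 points had the lowest adjusted p of the set, 0.0678, in the limma-moderated quasi-binomial test (range 0.000237 to 0.824 over the alternative settings). The adjusted p of the same test was 0.0145 without netrin-1 replicate 1 and 0.0435 without control replicate 1. The shelf next to it, 4007 to 6006 bp downstream, showed no such difference, at 46.0% and 48.3% in netrin-1 and 44.3% and 43.0% in control (adjusted p 0.898). The shelf upstream of the start site, with 30 to 57 calls and no test, had 19.3% and 15.8% in netrin-1 and 50.0% and 33.3% in control.

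In Six2, which keeps nephron progenitors undifferentiated, a shore and a shelf of neighbouring islands covered the same calls 3231 to 5230 bp downstream of the start site. The shelf chr17:85683044-85685043 had 2.18% and 3.79% in netrin-1 and 13.6% and 13.3% in control. The controls were nearly equal and both netrin-1 libraries far below them, and the difference of -10.4 points had an adjusted p of 0.0771 (limma-moderated quasi-binomial test, range 0.00311 to 0.824 over the alternative settings). The Six2 island at the start site stayed under 2% in every library.

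In Nkx6-2, the shelf chr7:139576921-139578920 lay 3877 to 5876 bp downstream of the start site, beyond the gene body. It had 9.09% and 13.7% in netrin-1 and 28.3% and 41.9% in control, without overlap. The difference of -23.7 points had an adjusted p of 0.0748 in the limma-moderated quasi-binomial test (range 0.0036 to 0.824 over the alternative settings). The island at its start site had 1.24% and 1.17% in netrin-1 and 0.519% and 1.01% in control, slightly higher without overlap, with an adjusted p of 0.717.

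**Figure D4:**
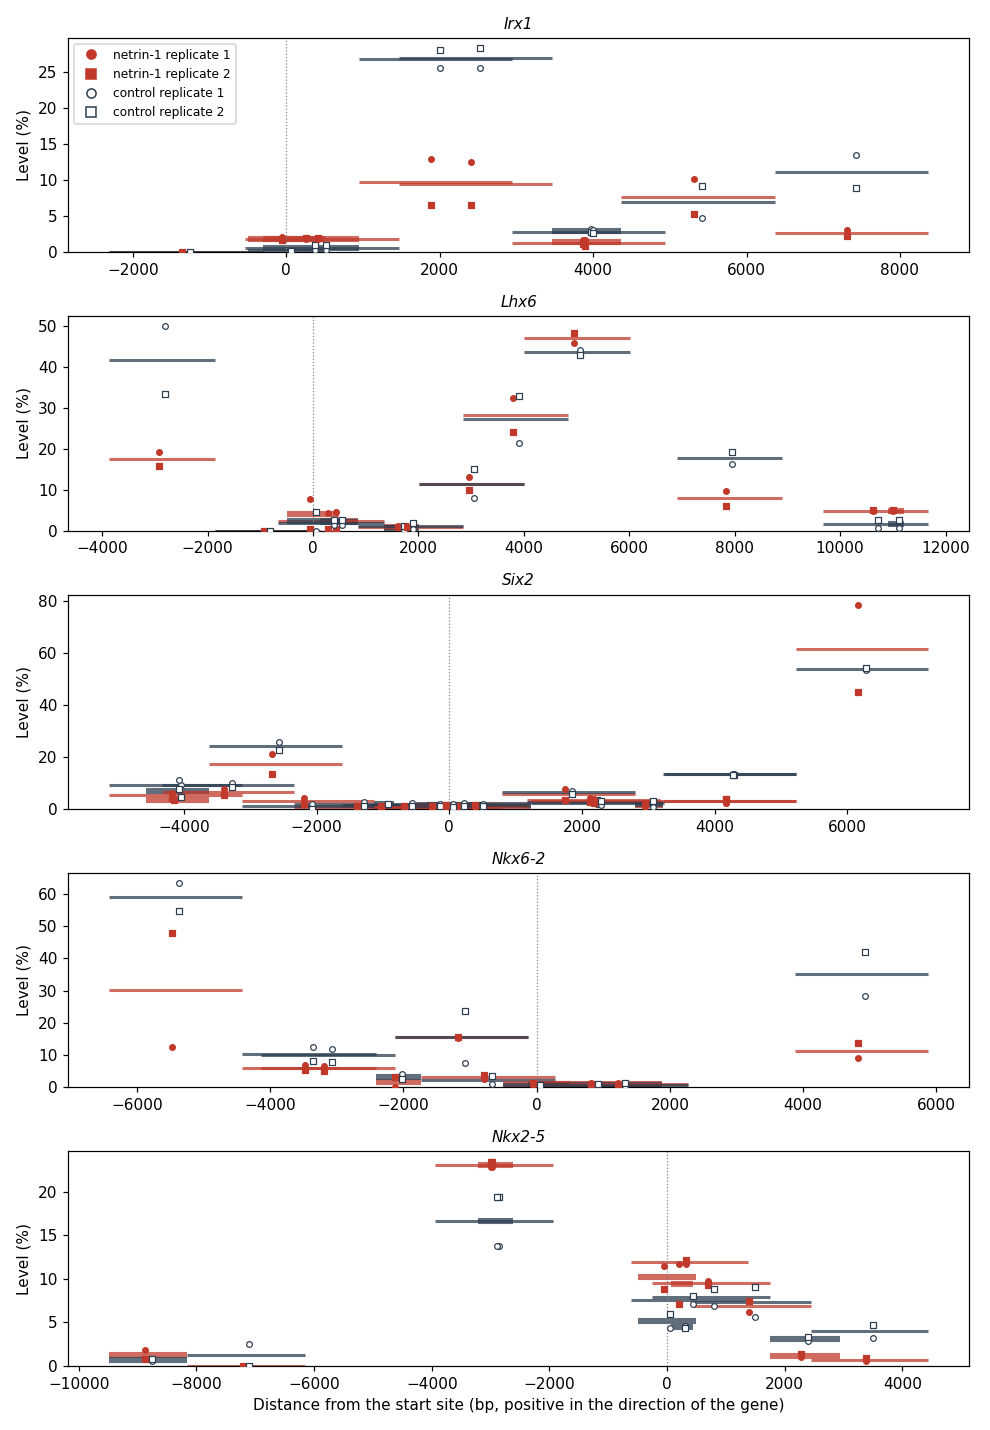
Methylation level (percent of calls, vertical axis) against distance from the start site (bp, horizontal axis) at Irx1, Lhx6, Six2, Nkx6-2 and Nkx2-5. Thick lines are islands and promoters, thin lines shores and shelves, drawn at the group mean over the feature's extent, with points for the libraries, netrin-1 red and control dark. The widest gaps drawn lie away from the start sites, as at the Irx1 shore with 12.5% and 6.59% in netrin-1 and 25.6% and 28.4% in control. Irx1, Lhx6, Six2 and Nkx6-2 hold the shores and shelves with the lowest p-values, so this placing follows from the choice of genes. Over the whole set, islands at start sites differed by -20.9% of the control level, shores by -22.0% and shelves by -21.0%.

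Nkx2-5 had higher levels in netrin-1 at its promoter and at 2 of its islands. Besides the promoter, its island at the start site, chr17:26841125-26841502, had 11.7% and 7.09% in netrin-1 and 4.55% and 4.33% in control. An upstream island, chr17:26844183-26844781, had 22.8% and 23.5% in netrin-1 and 13.8% and 19.4% in control. Both netrin-1 libraries were above both controls at each. The first lies wholly inside the promoter and shares its calls. The differences were 4.94 points at the first and 6.51 points at the second, with adjusted p of 0.553 and 0.377 in the limma-moderated quasi-binomial test. They were 2.65 points at the first without netrin-1 replicate 1 and 3.71 points at the second without control replicate 1. The gene body went the other way, at 4.78% and 5.13% in netrin-1 and 5.08% and 7.42% in control, with overlap.

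The islands of Otp and Barhl2 stood out by size and by level. The Otp intragenic island, chr13:94882781-94886009, spans 3229 bp and had 3.09% and 3.55% in netrin-1 and 6.11% and 6.25% in control. Replicates were close, and the difference of -2.86 points had an adjusted p of 0.169 (limma-moderated quasi-binomial test). With libraries centred it was -0.949 points. A small island assigned to Barhl2, a factor of retinal and spinal interneurons, lies 276064 bp from that gene at chr5:106181886-106182102 and was the most methylated island of the set, at 40.3% and 48.7% in netrin-1 and 56.5% and 90.6% in control. The groups did not overlap, control replicate 2 stood far above the rest, and the adjusted p was 0.277. The difference of -29.1 points was -12.0 points without control replicate 2 and -46.1 points without control replicate 1. An intergenic island of Msx1, a craniofacial factor, had 0.257% and 0.545% in netrin-1 and 10.6% and 2.53% in control, without a test in the main setting.

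A few features with few calls showed wide gaps in either direction. An En1 intragenic island, near the midbrain-hindbrain regulator, had 32.8% and 9.76% in netrin-1 and 0% in both control libraries, where 34 control calls allow a level of up to 8.82%. An intergenic shore of Otp had 0% in both netrin-1 libraries, where 50 calls allow up to 6.0%, and 7.89% and 16.7% in control. An intragenic shelf of Alx4, a limb and craniofacial factor, had 38.7% and 37.0% in netrin-1 and 84.8% and 60.6% in control, with 27 to 33 calls per library. An intergenic shore of Dlx3, an epidermal and tooth factor, was higher, at 60.0% and 43.3% in netrin-1 and 19.6% and 37.0% in control, with 27 to 51 calls. These features had no test, since their calls held too little information. A shore inside Six3 was higher as well, at 44.7% and 20.2% in netrin-1 and 20% and 20.1% in control, a difference of 12.4 points that was 0.114 points without netrin-1 replicate 1 (adjusted p 0.650, limma-moderated quasi-binomial test).

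When only shores are compared by family, those of Pax and Nkx genes were the most one-sided. In the Pax family 47 of 57 shores were lower in netrin-1, 26 of them without overlap, where 59.6% of all shores were lower and 23.9% lower without overlap, and the mean was 6.27% ± 0.619 in netrin-1 and 9.23% ± 0.624 in control (SD, n = 2 each). In the Nkx family 21 of 23 shores were lower, 12 of them without overlap, and the mean was 5.42% ± 0.306 in netrin-1 and 7.88% ± 0.421 in control. The islands of Six2, Six3, Six4 and Six6 were lower in 11 of 13, where 54.8% of all islands were lower, averaging 1.24% ± 0.035 in netrin-1 and 2.20% ± 0.037 in control. The islands of Lhx and Nkx genes, in contrast, averaged slightly higher in netrin-1, Lhx at 1.91% ± 0.134 in netrin-1 and 1.76% ± 0.211 in control and Nkx at 2.91% ± 0.128 in netrin-1 and 2.49% ± 0.364 in control. Neither gap much exceeded the spread between replicates. Of the Lhx islands 12 of 22 were higher, and of the Nkx islands 9 of 17. Library medians, averaged by group, went the other way. They were 1.21% in netrin-1 and 1.56% in control for Lhx, and 1.14% and 1.24% for Nkx. The Nkx mean included the Nkx2-5 islands described above, with differences of 4.94 and 6.51 points. No test was made between families, and features within a family share DNA.

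The neighbouring pairs and clusters of the Dlx and Irx families gave mixed values. Shores of Dlx1-Dlx2 averaged 3.03% ± 0.133 in netrin-1 and 5.87% ± 0.855 in control (SD, n = 2 each). Shores of Dlx3-Dlx4 averaged 19.4% ± 3.35 in netrin-1 and 16.8% ± 2.30 in control, where 4 of 7 were higher. That higher mean rested on the untested intergenic Dlx3 shore described above, with 27 to 51 calls. This shore had 60.0% and 43.3% in netrin-1 and 19.6% and 37.0% in control. Library medians of the Dlx3-Dlx4 shores, averaged by group, were lower in netrin-1. In the cluster of Irx1, Irx2 and Irx4, 11 of 13 shelves were lower and the mean was 5.45% ± 0.113 in netrin-1 and 8.24% ± 0.756 in control. In the cluster of Irx3, Irx5 and Irx6, 3 shelves of Irx3 and Irx6 averaged 9.31% ± 1.53 in netrin-1 and 9.50% ± 2.54 in control, within the spread of the replicates.

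A list of 71 other homeobox genes outside Hox, among them Cdx2, Otx2 and Isl1, was measured in the same way. Its promoters averaged 1.82% ± 0.329 in netrin-1 and 2.47% ± 0.262 in control, and its gene bodies 8.21% ± 0.512 in netrin-1 and 9.53% ± 0.356 in control (SD, n = 2 each). Of its 71 bodies, 55 were lower and 16 higher. Its islands differed by -0.622 points and its shores by -1.85 points, close to the -1.87 points of the shores of the 52 genes. As a share of the control level its promoters differed by -26.3%, its bodies by -13.8%, its islands by -24.6% and its shores by -22.6%. For the 52 genes these values were -21.4%, -14.5%, -21.6% and -22.0%. Its shelves differed by -1.45 points or -11.8% of the control level, less than the -2.48 points or -21.0% of the 52 genes, and this difference between the lists was not tested. None of its features passed an adjusted p of 0.05 in the limma-moderated quasi-binomial test, and at an unadjusted p under 0.05 there were 1 of 5 tested promoters, 10 of 59 bodies, 5 of 29 islands, 20 of 115 shores and 20 of 91 shelves.

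On the scale of 100 kb windows the difference around the developmental genes was smaller in points than over all windows, and this was not tested. The 48 windows that hold a start site of the set averaged 32.9% and 31.4% in netrin-1 and 34.6% and 35.0% in control, a difference of -2.60 points, against -3.89 points over all 25528 windows. Both netrin-1 libraries lay below both controls in 17 of the 48 (35.4%), against 47.1% of all windows, and above them in 2 (4.17%), against 4.40%. The ratio of netrin-1 to control coverage within 1 Mb of the genes lay between 0.910 and 1.09.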

How the data were processed

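RRBS calls of 4 libraries were analysed, with group and replicate taken from the titles. Per the submitters' processing notes, the build was mm10 (GRCm38) and FastQC was used. No aligner, caller or site filter is named in the sources used here. Per the file headers, the authors deposited for every library and feature the covered positions, the count of all calls, the count of methylated calls and the level as a fraction. The fraction matched the ratio of these counts to 5.55e-16 and is given here in percent. The observed-to-expected CpG ratio of each island is the authors' value, as deposited.

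Every feature of a table with at least 10 calls in each library, levels not all equal and an information (calls × level × (1 - level)) averaging 25 per library was fitted with a quasi-binomial logistic model, whose dispersion was moderated with limma 3.58.1 in R 4.3.3 (trend on coverage, robust, floor of 1). P-values were adjusted over the whole table by the Benjamini-Hochberg method, with a threshold of 0.05. An exact permutation test of 2 libraries against 2 was not used. Class values are unweighted means per library. Tables and figures were made with Python 3.11.15, pandas 2.3.3 and matplotlib 3.10.9. The fit was tested on simulated data. Large changes were planted there, only in well-covered features of a higher level than most of this set. The power to find smaller changes in this set was therefore not measured.

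The members, the list of other homeobox genes and the tests were chosen with earlier results of these data known. Features were picked by these rules: the 3 lowest and 3 highest differences without overlap in each class, the 3 highest levels, and families. Not every feature picked is described above. Rises left out were those of an En1 shelf (16.1 points), a Dlx3 shelf (14.8 points) and an Lhx9 shore (9.78 points). A fall left out was that of an Nkx6-2 shelf upstream of its start site (-28.8 points). Highly methylated features left out include a Barhl1 shelf (66.2% over the 4 libraries) and a Dlx3 shore (50.2%). Features with the lowest p-values, and some given by role, were added after their values were seen. The upper limit for a group at 0% is 3 calls over the calls of that group, which covers counting error only, as PCR copies are not independent molecules. No library pair had identical calls. Alternatives left out a replicate, changed the minimum, the moderation, the scale or the centring, or used the replicate number as a block. With libraries centred, the test used an offset per library in the logistic model. The differences given for it instead had the mean shift in points of all tested features of the table subtracted.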

Additional observations from a re-analysis of the deposited data

How the results depend on the processing

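No promoter or body of the set was called under any alternative tried. Without the information minimum 7 of 540 CpG island features of the set were called. Over the whole tables these were 412 of 42735 CpG island and 75 of 34657 gene features, against 22 of 11815 and 1 of 17209 in the main setting. When that fit was also not robust, 1 was called, the Lhx6 shelf (whole tables: 59 and 11). Leaving out 1 library gave 0 to 3 called CpG island features: 3 without netrin-1 replicate 1 (the Lhx6 shelf and both Irx1 shores), 1 without control replicate 1 (the Lhx6 shelf) and 0 otherwise, with 22 to 67 CpG island and 18 to 444 gene features called over the whole tables. Whole-table counts of CpG island and gene features were 0 and 0 without moderation, 0 and 0 in limma fitted to percentage points, 1 and 0 in limma fitted to M values, and 31 and 9 with libraries centred.

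The replicate numbers of the labels are not said to mark anything shared, and deviations of same-numbered libraries correlated at 0.0317 (gene table) and -0.000352 (CpG island table). With the number as a block, 0 promoters or bodies and 0 CpG island features of the set were called, and 299 gene and 14 CpG island features over the whole tables.

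Centred on all features of the class, chosen after seeing the data, the mean difference was 0.0932 points for promoters, 1.0 for bodies, -0.392 for islands, -0.730 for shores and -0.461 for shelves. Weighted by calls it was -0.323 for promoters, -1.45 for bodies, -0.545 for islands, -1.55 for shores and -1.25 for shelves. As a median over features it was -0.544 for islands and -1.62 for shelves, and with 30 calls per library -0.959 for islands and -1.90 for shelves. Without a minimum of calls it was -0.588 for bodies, where the Pax4 body entered. Leaving out 1 library it ranged from -0.915 to -0.254 for promoters, -1.37 to -0.561 for bodies, -0.902 to -0.545 for islands, -2.16 to -1.67 for shores and -2.91 to -2.23 for shelves. Counting overlapping features once, also chosen after seeing the data, gave -1.99 for shores and -2.68 for shelves. Among named features the difference reversed for a Barhl1 island (0.659 points without control replicate 1, to -6.95 without control replicate 2), a Barhl2 shore (0.444 without netrin-1 replicate 2 and 7.74 without control replicate 2, to -15.4 without control replicate 1) and, with libraries centred, the bodies of Nkx2-2 (0.0524) and Pax5 (0.630). Centring took the same shift in points off features of low and of high level. Other causes of these changes were not tested. Depth limits the features with fewest calls, which could not be tested.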
